A study of Mus musculus with 2 samples.

Results

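Cartilage matrix genes and Sox9, their transcription factor, were compared between 2 cultures of mouse embryonic fibroblasts, 1 wild type and 1 homozygous for Phc2 L307R. Fibroblasts of this kind are grown out of dissociated embryos and hold a mixture of mesenchymal cells. Both cultures carry the strain label C57BL/6, were taken at embryonic day 12.5 and were used at passage 1; the number of embryos behind each culture is not stated in the labels. Phc2 belongs to Polycomb repressive complex 1, which silences developmental genes, and L307R replaces 1 residue of the SAM domain by which Phc2 molecules polymerise. The cells were collected as a whole culture, so that more cells of a type and more RNA per cell cannot be told apart in any value below.

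The 10 genes are Col2a1, Acan, Matn1, Comp, Hapln1, Col11a2, Col9a1, Snorc and Cnmd, called the 9 matrix genes here, and Sox9. Their probe sets were those with one of these as the only gene symbol in the platform annotation, 16 of the 45037 probe sets other than controls. They stand for 10 of the 18193 genes on the array. The genes were picked with their values on these arrays known, so their log2 ratios are a description and were given no test. Each genotype had 1 array, the number of arrays limits the precision, and no value has a replicate. A signal below the floor of 94.8, the higher of the 2 arrays' medians, was raised to it before the ratio was taken, and a gene above the floor on at least 1 array is called measured. The matrix genes were represented by 13 probe sets, all measured, of which 10 lay above the floor on both arrays. Sox9 had 3 probe sets, of which 2 were measured. Where a pair of signals follows, the wild-type array comes first and the Phc2 L307R array second.

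Cartilage is a tissue of few cells in much matrix. Its fibrils are built from type II collagen with types IX and XI, and the space between them is filled by aggrecan, a proteoglycan that binds hyaluronan and is held there by link protein. Sox9 binds enhancers of most of these genes as a dimer and works with Sox5 and Sox6; without it, cartilage does not form. In the embryo at midgestation, mesenchymal condensations of the limb and trunk begin to make this matrix.

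Of the 10 genes, 6 had a promoter window in the RefSeq table of build GRCm38.p6, 7 windows in all, each running from 250 bases before to 50 bases after a start site. Mammalian Polycomb complexes are found mostly at promoters rich in CpG, so the following stretches upstream of the annotated gene starts are shown to compare the density of CpG, which is set in capitals. Acan is on the forward strand (chr7:79052976-79053225), as are Matn1 (chr4:130944135-130944384) and Hapln1 (chr13:89540386-89540528), and Cnmd is on the reverse strand (chr14:79662195-79662433); all are written 5′ to 3′.
Acan: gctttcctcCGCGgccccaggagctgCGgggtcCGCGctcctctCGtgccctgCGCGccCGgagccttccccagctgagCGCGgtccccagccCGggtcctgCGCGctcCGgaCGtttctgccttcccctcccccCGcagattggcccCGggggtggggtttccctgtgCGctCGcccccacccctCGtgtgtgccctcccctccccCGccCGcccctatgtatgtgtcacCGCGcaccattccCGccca
Matn1: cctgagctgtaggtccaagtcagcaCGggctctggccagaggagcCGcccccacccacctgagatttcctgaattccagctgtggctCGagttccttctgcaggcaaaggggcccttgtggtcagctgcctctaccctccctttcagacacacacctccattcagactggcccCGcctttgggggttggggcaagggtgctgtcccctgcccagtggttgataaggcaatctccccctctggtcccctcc
Cnmd: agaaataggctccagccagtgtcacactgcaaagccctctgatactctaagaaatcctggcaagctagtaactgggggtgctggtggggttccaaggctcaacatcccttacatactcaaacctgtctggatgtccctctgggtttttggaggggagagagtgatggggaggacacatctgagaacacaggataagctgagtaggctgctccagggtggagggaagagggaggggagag
Hapln1: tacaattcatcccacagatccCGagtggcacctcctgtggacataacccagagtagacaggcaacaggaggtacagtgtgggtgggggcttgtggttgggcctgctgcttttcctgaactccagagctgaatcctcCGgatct

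These stretches held 26 CpG in 250 bases for Acan, 4 in 250 bases for Matn1, 0 in 239 bases for Cnmd and 2 in 143 bases for Hapln1. Over the whole windows of 300 bases, Acan had 31 CpG, Col11a2 16, Matn1 6, Hapln1 3, Cnmd 1 and the pair of Col9a1 windows 0 and 1. The median over 32851 windows of the table was 7, and 10.6% of windows had at least as many CpG as that of Acan. Among the 6 genes with a window, only Acan and Col11a2 therefore lay above the median of all promoters. Col2a1, Comp, Snorc and Sox9 had no window, so their CpG density was not examined. The core of the sequence that Sox proteins bind was searched on both strands in 2 forms, ACAAT and ACAAAG. The shorter form was found in 1 of the 7 windows, that of Hapln1, where it starts at base 2 of the stretch shown, and in 31.0% of all windows. The longer form was found in 0 of the 7 and in 18.7% of all windows. A match is only these letters, and a window without one says nothing of enhancers elsewhere.

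All 9 matrix genes were higher in Phc2 L307R, and Sox9 was not. The median log2 ratio of the matrix genes, Phc2 L307R minus wild type, was 1.04, with a range from 0.49 to 1.69, against a median of 0.06 over all 11408 measured genes. At least 2-fold higher were 6 of the 9, where 0.579% of all measured genes were; 0.535% were at least 2-fold lower, none of the 10 among them. Since the genes were chosen for these values, nothing is read from that share. The genes just past 2-fold were Comp at 1.02 and Hapln1 at 1.04 on the log2 scale, and the next below was Col9a1 at 0.80.

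**Figure D1:**
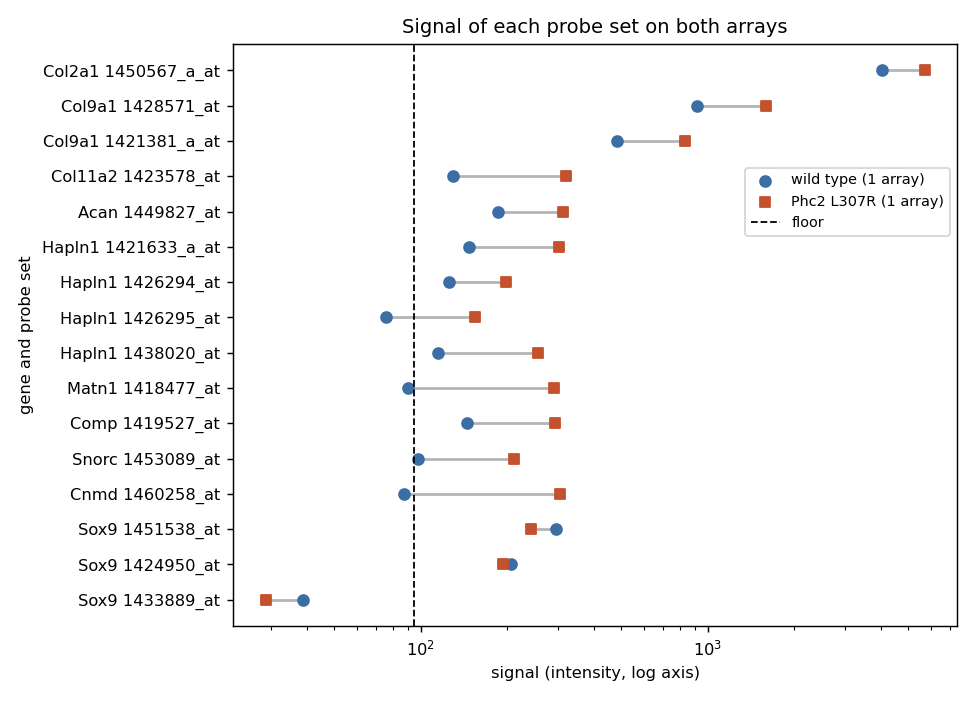
Signal of every probe set of the 10 genes on the wild-type array (circles) and the Phc2 L307R array (squares), on a log axis; the dashed line is the floor of 94.8. The square lies to the right of the circle for all 13 probe sets of matrix genes and to the left for all 3 of Sox9, the lowest of which is below the floor on both arrays.

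The 3 collagen genes of the cartilage fibril were between 1.41-fold and 2.47-fold higher in Phc2 L307R. Col2a1, which encodes the chain of type II collagen, had signals of 4037.2 and 5685.2, 1.41-fold higher. Its log2 ratio of 0.49 was the smallest among the matrix genes. Col9a1, a chain of the type IX collagen that sits on the fibril's surface, had signals of 916.2 and 1599.4 at its main probe set, a log2 ratio of 0.80. Its second probe set gave 484.1 and 834.7, a log2 ratio of 0.79. The pair thus differed by far less than the SD of 0.32 found between measured probe sets of 1 gene over 5460 genes. Col11a2, a chain of type XI collagen, had signals of 129.9 and 321.3, 2.47-fold higher.

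The partner chains of these collagens showed smaller ratios, in both directions, or were not measured. Col11a1 and Col9a2, not covered by the naming rule, were picked with their values known. Col9a3 had signals of 161.3 and 209.8, a log2 ratio of 0.38, and 0.10 at its second measured probe set. Col11a1, which joins Col11a2 in the same trimer, had signals of 3730.0 and 4612.5 at one probe set, log2 ratio 0.31. Its other probe set went the opposite way, from 3561.7 to 2462.7 (log2 ratio -0.53), so its direction is not settled by these arrays. Col9a2 lay below the floor on both, at 64.1 and 77.1.

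Both genes of the aggrecan aggregate were higher in Phc2 L307R. Acan, the core protein of aggrecan, had signals of 185.9 and 312.4, 1.68-fold higher. Hapln1, the link protein that ties aggrecan to hyaluronan, had 4 probe sets, all higher in Phc2 L307R. Its main probe set gave 147.4 and 302.5, a log2 ratio of 1.04, and the probe set 1438020_at gave 115.0 and 256.4, a log2 ratio of 1.16. The remaining ones gave 125.2 and 198.7, a log2 ratio of 0.67, and 75.7 and 154.5, at least 0.70. The mean of the 4 was 0.89, below 2-fold, so the side of the threshold on which Hapln1 falls depends on the probe set.

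The largest ratios, those of Cnmd and Matn1, were found among adaptor proteins of the matrix and small cartilage proteins. Matn1, matrilin 1, which links collagen fibrils with proteoglycans, had signals of 90.4, which is under the floor, and 291.0, at least 3.07-fold higher. Comp, a pentameric thrombospondin of cartilage and tendon that binds collagens, had signals of 144.9 and 293.0, 2.02-fold higher. Snorc, a small transmembrane proteoglycan of chondrocytes, had signals of 97.9 and 211.1, 2.16-fold higher from a wild-type value just above the floor. Cnmd, chondromodulin, an inhibitor of blood vessel growth made by cartilage, had signals of 87.5 and 306.5, at least 3.23-fold higher. By log2 ratio, Cnmd ranked 4 and Matn1 8 from the top of the 11408 measured genes, Col11a2 22, Snorc 37, Hapln1 53 and Comp 59. Each of these except Hapln1 rests on 1 probe set, as do Acan and Col2a1.

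Sox9 did not share the higher signal of its matrix genes on these arrays. Its main probe set, 1451538_at, had signals of 295.9 and 241.5, a log2 ratio of -0.29. Its second measured probe set gave 205.3 and 193.7, a log2 ratio of -0.08. The probe set 1433889_at lay below the floor on both arrays, at 38.8 and 28.8. Both measured ratios are smaller in size than the SD of 0.32 between probe sets of 1 gene. That SD does not measure the spread between arrays or cultures. Having no replicate, these arrays do not separate a slightly lower level of Sox9 from an equal one. The median of the matrix genes exceeded the log2 ratio of Sox9 by 1.33, and the lowest matrix gene, Col2a1, exceeded it by 0.79. With 1 array per genotype neither difference was tested.

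**Figure D2:**
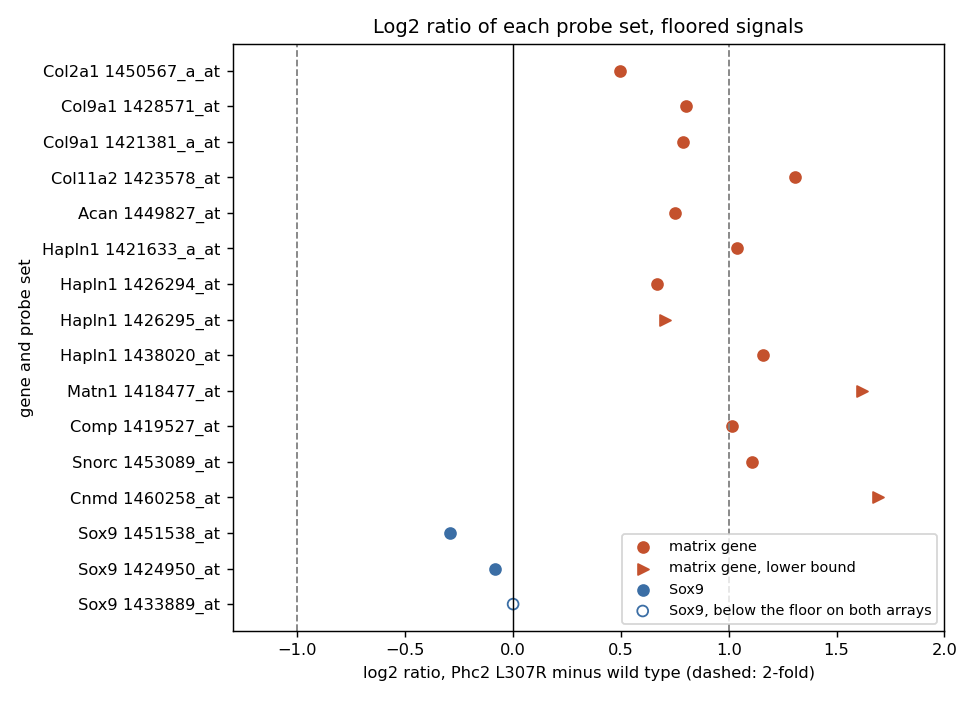
Log2 ratio, Phc2 L307R minus wild type, of every probe set of the 10 genes; triangles are lower bounds, for which the wild-type signal was below the floor, and dashed lines mark 2-fold. Matrix probe sets run from 0.49 to 1.69 and the measured Sox9 probe sets lie at -0.29 and -0.08.

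The largest ratios were those of genes dim in wild type. Of the 9 matrix genes, 7 had a wild-type signal under 189.6, which is 2 floors, and all 6 with a 2-fold difference were among them. The seventh, Acan, at 0.75, lay below the brighter Col9a1 at 0.80, and Col2a1 lay at 0.49. Ratios of dim genes also spread more over the whole array. Measured genes were split by mean signal into 3 parts of equal number. In the dimmest part, which holds 7 of the matrix genes and Sox9, the SD of the log2 ratio was 0.39 and 1.13% of genes were at least 2-fold higher. In the middle part, which holds none of the 10, 0.447% were. In the brightest part, which holds Col9a1 and Col2a1, the SD was 0.28 and 0.158% were. A higher floor changed the count of 6, while a lower one did not. It stayed at 6 with a floor of 57.5, at the 40th percentile, and with no floor. With a floor of 176.2, at the 60th percentile, 0 of the 9 were at least 2-fold higher, because it caps the ratio of every gene that is dim in wild type, while all 9 kept a log2 ratio above 0 and the median was 0.75.

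**Figure D3:**
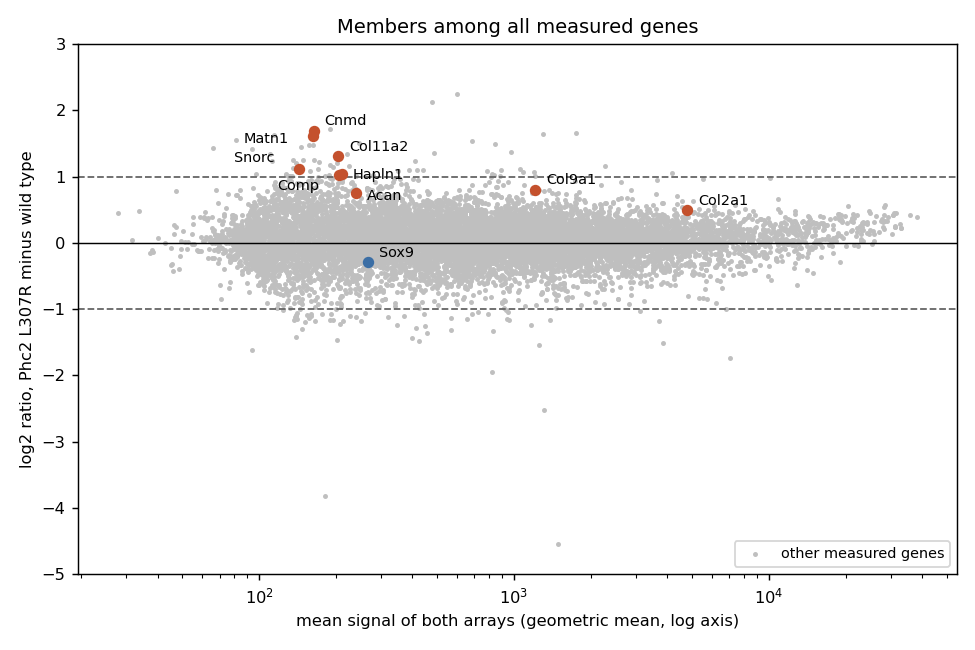
Log2 ratio, Phc2 L307R minus wild type, against the mean signal of both arrays (log axis) for all measured genes (grey), the 9 matrix genes (red) and Sox9 (blue); dashed lines mark 2-fold. The matrix genes at or above 1.02 lie at the dim end, Col9a1 and Col2a1 lie at the bright end at 0.80 and 0.49, and Sox9 lies below 0.

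Matn1 is the only one of the 10 genes on the chromosome of Phc2, 34 measured genes away from it. At Phc2 itself the log2 ratios were 0.36 and -0.02 at its 2 probe sets, which check nothing of a missense change. Without Matn1, left out after the data were seen, the matrix median was 1.03 and 5 of 8 were at least 2-fold higher. The genes whose pair of signals came nearest to that of Sox9, by the distance between log2 signals over the 2 arrays, were Sugp2, Lyrm4 and Mcm8, with log2 ratios of -0.29, -0.30 and -0.29. Those nearest to Col2a1 were Col6a2, Ercc1 and Abhd4, at 0.48, 0.51 and 0.48. With 2 arrays such a match is only 1 of level and ratio.

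Further cartilage matrix genes mostly had log2 ratios above 0 where measured. Of 16 with a probe set, 11 were measured; all 11 had a log2 ratio above 0 at their main probe set, and the median was 0.31. With signals raised to the floor none reached 2-fold, though the values of Mia and Cytl1 are lower bounds. With ratios centred on the median of measured genes, 10 lay above 0 and 1 below. In 3 of the 11, Col11a1, Matn3 and Fmod, a further probe set lay below 0. The values were -0.34 or lower for Matn3, and -0.18 and, at another probe set, -1.39 or lower for Fmod. Matn3 and Fmod were chosen after their values were seen. Over all measured genes, 59.1% lay above 0. Mia, a secreted protein of cartilage and melanoma cells, had signals of 91.4 and 189.2, a lower bound of 1.00 on the log2 scale that before rounding lies just under 2-fold; its signals as deposited were 2.07-fold apart. Cytl1, a secreted protein of chondrocytes, had 74.9 and 178.3, at least 0.91 and 2.38-fold apart as deposited, and Epyc, the small proteoglycan epiphycan, 112.7 and 181.3, or 0.69. The 5 not measured, below the floor on each array, were Col9a2 and, named only after their values were known, Ucma, Chad, Cilp and Cilp2.

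Genes of the hypertrophic stage, in which chondrocytes enlarge before bone replaces them, also mostly had log2 ratios above 0. All 9 with a probe set were measured, 7 above 0 and 2 below, with a median log2 ratio of 0.40 and none at 2-fold. For this count and those of the lists that follow, the share above 0 over all measured genes was 59.1%. Mmp13, a collagenase that cleaves type II collagen, had signals of 302.7 and 581.1, a log2 ratio of 0.94. Col10a1, the collagen that defines this stage, had 356.8 and 602.0, a log2 ratio of 0.75. Panx3, a channel protein, was at 0.80 and Alpl, the alkaline phosphatase of mineralising cells, at 0.72.

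Transcription factors of cartilage showed small ratios. At main probe sets Sox9 lay below those named here with a ratio, but these were named for size and all lay above 0. Nothing is read from that order. Of 14 with a probe set, 11 were measured, 10 above 0 and 1 below (8 and 3 with centred ratios), and the median log2 ratio was 0.19. These counts are of main probe sets, and 6 of the 11 had a measured probe set below 0. Sox5, a partner of Sox9, had signals of 127.8 and 199.9, a log2 ratio of 0.65, and 0.23 and at least 0.52 at its other measured probe sets. Sox6, the second partner, had 207.8 and 268.9, a log2 ratio of 0.37, but 0.87 and -0.35 at its others, so its direction is not settled. Creb3l2, which drives secretion of matrix proteins in chondrocytes, was at 0.45 and Barx1, a homeobox factor, at 0.32 or more. The 3 factors not measured were Sox8, Runx3 and Nkx3-2, named only after their values were known.

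Candidate targets of Sox9 outside the matrix, a list written from general knowledge that shares Sox5, Sox6, Papss2 and Chst11 with other lists, comprised 9 measured genes, 7 above 0 and 2 below, with a median log2 ratio of 0.31. Nt5e, an ecto-nucleotidase, was at 0.49 or more and Chst11, a chondroitin sulphotransferase, at 0.39 with -0.01 at its second probe set. Rgcc was at -0.92, from 288.4 to 152.8, with 0.24 at its second probe set. None of the 9 was past 2-fold in either direction, and 4 of them had a measured probe set below 0. Over all measured genes, 59.1% lay above 0.

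The enzymes that build chondroitin sulphate, the sugar chains of aggrecan, did not lean as one. Of 19 measured, 12 lay above 0 and 7 below (11 and 8 with centred ratios), with a median log2 ratio of 0.12 and none past 2-fold on floored signals. A measured probe set below 0 was found in 9 of the 19. Chsy3, a chondroitin synthase, had signals of 182.5 and 84.5, a log2 ratio of -0.94 or lower (2.16-fold apart as deposited), and Csgalnact2, which starts the chain, 1191.3 and 738.7, a log2 ratio of -0.69. B3galt6, an enzyme of the linker between protein and chain, was at 0.61. Collagen folding and processing genes had a median of 0.22 over 16 measured, 13 of them above 0 (11 with quantile normalization). Yet 7 of the 16 had a measured probe set below 0. Of the hydroxylase genes, Plod3 was at 0.47, P4hb at 0.40 and P3h1 at 0.34, with 0.05 at the second probe set of P3h1. The procollagen proteinase Bmp1 was at 0.35, with 0.05 at its second measured probe set. Genes of matrix breakdown and its inhibitors had a median of 0.21 over 13 measured, 9 of them above 0, as were 59.1% of all measured genes. Of the 13, 6 had a measured probe set below 0. Beside Mmp13, Timp3, an inhibitor of aggrecanases, was at 0.70, but at 0.18, 0.36 and 0.25 at its other probe sets. Adamts4, an aggrecanase, was at 0.36 with -0.15 or lower at its second probe set, and Timp2 at 0.30.

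**Figure D4:**
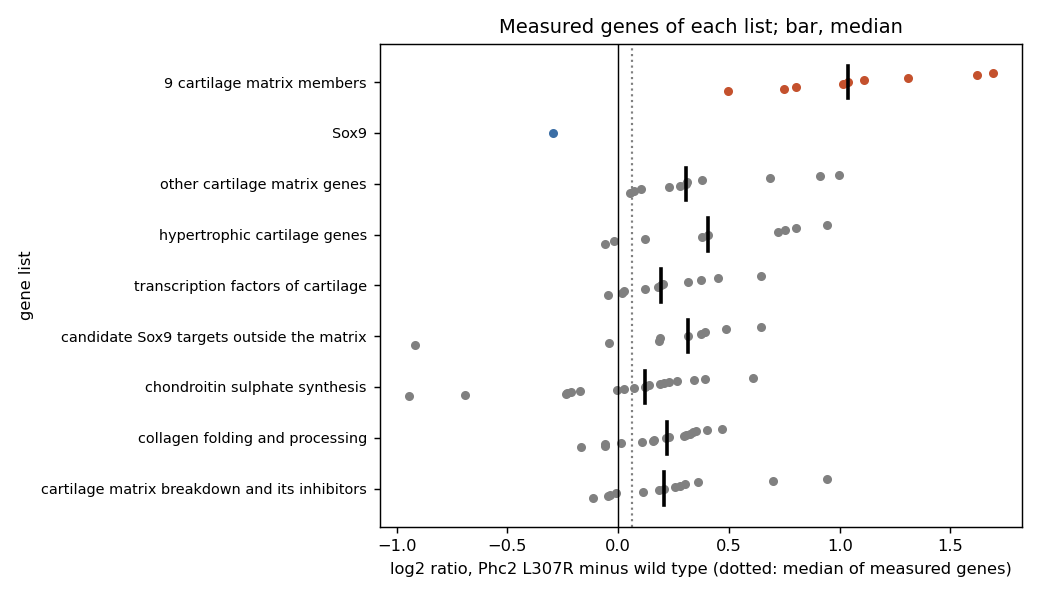
Log2 ratio, Phc2 L307R minus wild type, of every measured gene (points) in the 9 matrix genes, Sox9 and 7 lists of cartilage genes; bars are list medians and the dotted line is the median of all measured genes, 0.06. The list medians lie between 0.12 and 0.40, below the 1.04 of the matrix genes, which were chosen for their values.

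Markers of neighbouring mesenchymal cell types also differed between the arrays. The fibroblast list, whose 11 genes with a probe set were all measured at signals of 1381.5 or more, had summed signals of 130791 and 171021, 1.31-fold more, and a median log2 ratio of 0.40 (0.19 with quantile normalization), with 9 genes higher and 2 lower. Dcn was at 0.88, Col3a1 at 0.56 and Col1a2 at 0.45, the lower ones, Pdgfrb and Pdgfra, named with their values known, were at -0.34 and -0.12, and 4 of the 11 had a measured probe set below 0. The osteoblast list, 5 of 7 measured, had summed signals of 841.7 and 1818.9, 2.16-fold more, with 4 genes higher and 1 lower: Ibsp was at 2.12, Dlx5 at 1.15, Alpl, also in the hypertrophic list, at 0.72, and the lower one, Omd, named with its value known, at -0.33. Without Ibsp, left out with the data known, the sums were 612.9 and 821.3, 1.34-fold more; Dmp1 and Phex, markers of late osteoblasts and osteocytes, lay below the floor on both. The tendon list, 6 of 7 measured, had summed signals of 10252.6 and 12157.6, 1.19-fold more, and a median log2 ratio of 0.26, with 5 genes higher and 1 lower. Scx was at 0.42, Tnmd at 0.36 and Mkx at 0.30, and the lower one, Thbs4, named with its value known, at -0.29. Kera, the tendon marker not measured and named with its values known, lay below the floor on both arrays, at 2.4 and 3.9. The part of any of these cell types in the matrix genes' ratios was not tested.

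The direction of the 10 genes was the same in all settings tried, while the size was not. For several of these settings that outcome was fixed in advance. A changed floor, no floor and a pseudocount cannot turn the sign of a probe set's ratio. No probe set of the 10 genes ends in _x_at or _s_at, and centring takes only 0.06 off each ratio. Nothing is therefore concluded from this sameness of direction. Across the reported setting and 9 others run on every gene, each of the 9 matrix genes had a log2 ratio above 0 and above that of Sox9. None of them was at or above 1 in every setting. Sox9 ranged from -0.36 to -0.19 over these settings and was below 0 in each. Cnmd ranged from 0.80 to 1.81, Matn1 from 0.72 to 1.69 and Snorc from 0.26 to 1.11, whereas Col2a1 stayed between 0.43 and 0.50 and Col9a1 between 0.74 and 0.80.

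**Figure D5:**
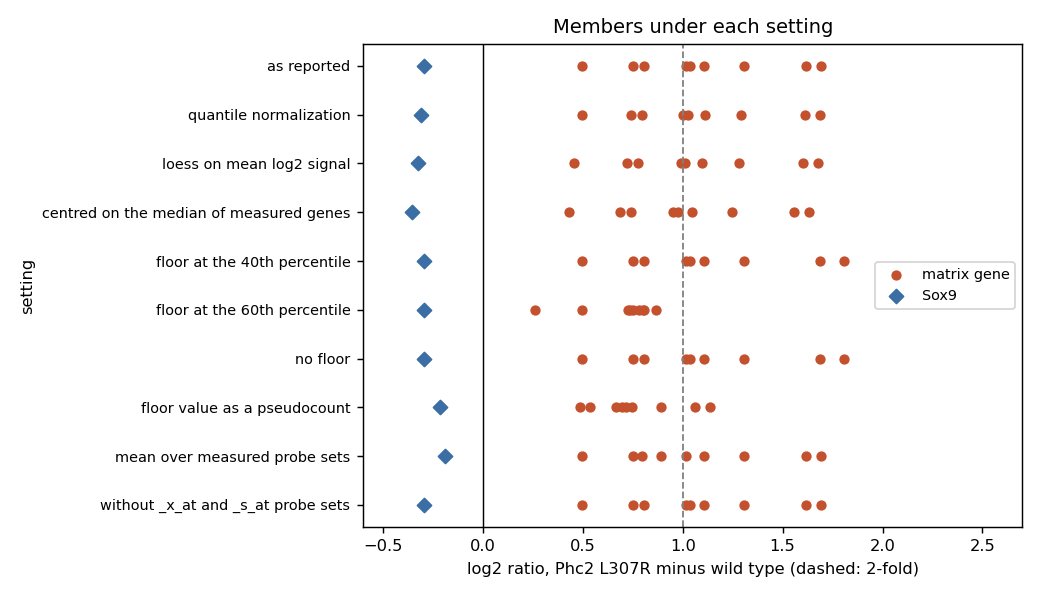
Log2 ratio, Phc2 L307R minus wild type, of the 9 matrix genes (circles) and Sox9 (diamonds) under the reported setting and 9 others; the dashed line marks 2-fold. Sox9 lies left of 0 and every matrix gene right of it in all 10, and with the floor at the 60th percentile no matrix gene reaches 2-fold.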

How the data were processed

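Total RNA was measured on 2 Affymetrix arrays, and the authors deposited linear intensity values of 45101 probe sets. Per the submitters' processing notes, Affymetrix Expression Console and MAS5 were used; versions and scaling are not given in the sources used here. Both arrays have a trimmed mean of 500.0 (2% off each end). Median signals were 94.8 (wild type) and 94.3 (Phc2 L307R), and the arrays correlated at a Spearman rho of 0.955 across probe sets, which are not replicates. No detection calls were used.

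The 64 control probe sets were left out. Of the rest, 34945 had 1 gene symbol, 932 several and 9160 none listed; symbols were updated through a RefSeq table of GRCm38.p6, with 34741 matches. Each gene was read at the probe set brightest on average. Signals under 94.8 were raised to it. Calculations used Python 3.11.15 with pandas 2.3.3 and statsmodels 0.14.6 and were tested on simulated arrays. No p-value was computed.

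The members and lists were chosen with earlier results of these data known. The 7 pathway lists and 8 cell type lists were written from general knowledge. Named were all members with every probe set, the up to 4 measured genes of largest absolute log2 ratio in each pathway list and 3 in each cell type list, and the 3 genes nearest in signal to Sox9 and to Col2a1. The alternatives were quantile normalization, loess (span 0.4, 3 iterations), centring, a floor at the 40th or the 60th percentile, a pseudocount, signals without a floor, the mean over probe sets, removal of _x_at and _s_at probe sets, and thresholds of 1.5-fold and 3-fold.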

Additional observations from a re-analysis of the deposited data

How the results depend on the processing

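Under every alternative run, the matrix genes' median log2 ratio (0.71 to 1.04) and the log2 ratio of Sox9 (-0.36 to -0.08) kept their direction. Several of these alternatives could not have changed it. Each value moved by less than 0.325, the SD between probe sets of 1 gene. That SD does not measure the spread of a median over genes, nor that between cultures. The lowest and highest for Sox9 came with centring and with its other measured probe set, the latter chosen after seeing the data. The matrix median exceeded Sox9 by 0.93 with the floor's value as a pseudocount, against 1.33 as reported. The number of matrix genes at least 2-fold higher was 6 as reported, with a 40th-percentile floor and without a floor. It dropped to 0 under the 60th-percentile floor and was 2 with the pseudocount. The number past the threshold was 8 at 1.5-fold and 2 at 3-fold. At 2-fold it was 4 with centred ratios and 4 among members above the floor on both arrays, the latter chosen after seeing the data. The higher floor and the pseudocount by construction compress the ratios of genes dim in wild type, and centring takes 0.06 off every log2 ratio. Among all measured genes the reported counts past 2-fold were 66 (higher) and 61 (lower). They were 47 and 75 with centred ratios, 127 and 90 with a 40th-percentile floor, 27 and 35 with a 60th-percentile floor, 159 and 122 without a floor, 26 and 22 with the pseudocount, 478 and 371 at 1.5-fold, and 8 and 6 at 3-fold. Signals near the floor limit 7 of the 9 matrix genes. No paired analysis was possible because each genotype has 1 array.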

Other observations

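Markers of cell types farther from cartilage were few or mixed, though the measured macrophage markers mostly lay above 0. Skeletal muscle genes were clearly measured in both cultures, 7 of 8 with a median log2 ratio of 0.01 (-0.05 with centred ratios), 4 higher and 3 lower, with the actin Acta1 at 0.51, desmin (Des) at 0.35 and the myogenic factor Myod1 at 0.29, and with Myh3, Chrna1 and Tnnt1, named with their values known, at -0.22, -0.11 and -0.05. Of 10 macrophage markers 5 were measured, 4 higher and 1 lower, at a median of 0.57. Their wild-type signals at main probe sets ran only from 102.1 to 162.6, all under 189.6, which is 2 floors. Laptm5 was at 1.00 (and -0.06 or lower at its second measured probe set), Csf1r at 0.57 and Lyz2 at 0.57. The lower one, Cd68, named with its value known, was at -0.11. Ptprc, C1qa and Tyrobp, named only after their values were known, were not measured. Of 8 endothelial markers 3 were measured, at a median of 0.05 (-0.01 with centred ratios), with Emcn at -1.15, Tek at 0.44 or more and Kdr at 0.05. Neural and glial markers, 7 of 7 measured, had a median of 0.26 with ratios in both directions, Map2 at -1.31 and Stmn2 at 1.01. Nes was at 0.60, but at 0.13 and -0.29 at its other probe sets, so its direction is not settled. Epithelial markers, 3 of 7 measured, had a median of -0.31, with Krt18 at -0.48, Krt5 at -0.31 and Krt8 at 0.06. The other probe sets of Krt8 gave -0.34 or lower and 0.02 or more.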
